A study of Mus musculus with 6 samples.

Results

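Oxidative phosphorylation is carried out in the inner mitochondrial membrane by 4 respiratory complexes and an ATP synthase, and most of their subunits are encoded in the nucleus. The genes described here were the 91 of 23337 rows of the count table whose symbol starts with Nduf (complex I, 42 genes), Sdh (complex II, 6), Uqcr (complex III, 8), Cox4i, Cox5, Cox6, Cox7 or Cox8 (complex IV, 18) or Atp5 (complex V, the ATP synthase, 17). They were followed in mouse leukaemia initiating cells (LICs), the fraction of a leukaemia that can propagate it, obtained by sorting. The 3 adult libraries carried replicate numbers 1, 2 and 4, and the 3 neonatal libraries carried 4, 7 and 8. The labels give hematopoietic stem and progenitor cells as the source of both groups and state no leukaemia driver, strain, sex, age in days or treatment. Nothing in them ties a replicate to an animal of its own, and the p-values below measure only library-to-library spread, which may be technical.

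Complexes I and II take electrons from NADH and from succinate and pass them to ubiquinone. Complex III passes them on to cytochrome c, and complex IV passes them to oxygen. Complexes I, III and IV pump protons while doing so, and complex V makes ATP as the protons flow back. In complexes I, III and IV the catalytic centres are formed by a few core subunits, some of them encoded by the mitochondrial genome, and many small accessory subunits surround them. Normal haematopoietic stem cells are known for a low reliance on this pathway compared with their dividing progeny.

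Library totals ran from 60113466 to 66132051 counts in 5 libraries. Neonatal replicate 4 held 3932833, so the mean depth of the others was 16.2 times its own. Correlations of log2 CPM (CPM being counts scaled to library size, with TMM) between neonatal replicate 4 and the others were 0.857 to 0.880, against 0.954 between neonatal replicates 7 and 8 and 0.926 to 0.946 among the adults. Every comparison is therefore given on all 6 libraries and on the 5 without neonatal replicate 4. The progenitor markers Kit, Cd34, Ptprc and Myb were detected in all 6 libraries. Summed CPM of 10 maturing neutrophil markers was 1844 to 14882 in the adult and 79.6 to 292.0 in the neonatal libraries, and that of 8 stem and progenitor markers was 1394 to 2066 in the adult and 1629 to 3901 in the neonatal libraries. All 10 neutrophil markers had a negative fold change on 6 libraries. On 5, 9 of the 10 were negative and Mmp9 was positive (0.16). Also on 5, S100a8 was called lower and Kit, Flt3 and the stromal marker Pdgfrb higher. Of the 8 stem and progenitor markers, 5 had a positive fold change on 5 libraries. The other 3, Hoxa9, Myb and Ptprc, had negative ones (-0.56, -0.41 and -0.33). Monocyte and macrophage markers (7 genes) summed to 1426 to 2443 CPM in the adult and 1109 to 4046 CPM in the neonatal libraries. Stromal and endothelial markers (8 genes) summed to 27.5 to 77.4 and 77.4 to 201 CPM. The 6 B cell markers summed to 28.5 to 69.4 CPM in the adult and 72.0 to 147 CPM in the neonatal libraries, almost all of it from Cd79b (28.3 to 68.5 and 70.7 to 146 CPM), while Ms4a1 and Pax5 were at 0 counts in all 6. The 6 T and NK cell markers summed to at most 3.10 CPM, with Cd3e, Cd3g and Ncr1 at 0 and Cd3d, Lck and Klrb1c detected. Of the endothelial markers Cdh5 and Kdr were at 0. The 9 erythroid markers summed to at most 3.75 CPM, mostly from Klf1 and Alas2, but the globin genes Hba-a1, Hba-a2, Hbb-b1 and Hbb-b2 cannot be read here, since each pair lies in nearly the same interval and all 4 are listed at 0. Xist, expressed from the inactive X of female cells, was at 51.7 to 185.9 CPM in the neonatal and at most 0.919 CPM in the adult libraries, so sex and age cannot be told apart. The part of these markers and of sex in the results below was not tested.

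Neonatal replicate 4 stood apart from all other libraries in these genes. The 91 genes together took 18292, 14895 and 18303 CPM in adult replicates 1, 2 and 4. They took 35888 CPM in neonatal replicate 4, and 14705 and 14883 CPM in neonatal replicates 7 and 8. In the shallow library the sum was 2.09 times the adult mean, while in the other neonatal libraries it was 0.862 times that mean. In bulk RNA, fewer cells of a type and less RNA per cell cannot be told apart.

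**Figure D1:**
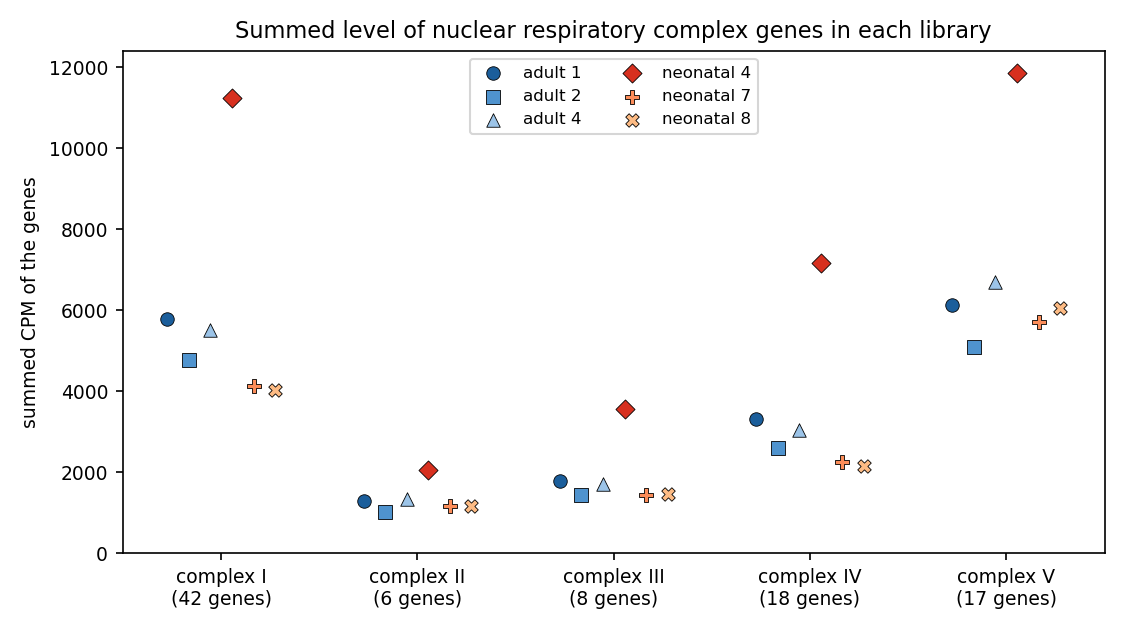
Summed CPM (linear axis from 0) of the genes of each complex in each of the 6 libraries, 1 point per library. Neonatal replicate 4 is the highest point in all 5 complexes, and neonatal replicates 7 and 8 lie below all adult points in complexes I and IV.

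In all 5 complexes neonatal replicate 4 had the highest sum. For complex I the adult libraries summed to 5359 ± 526 CPM (SD, n = 3), neonatal replicate 4 to 11236 CPM, and neonatal replicates 7 and 8 to 4137 and 4038 CPM. Complex IV sums were 2979 ± 361 CPM in the adults (SD, n = 3), 7164 CPM in neonatal replicate 4, and 2252 and 2145 CPM in the other neonatal libraries. These were the complexes whose sums in neonatal replicates 7 and 8 lay furthest below the adult mean, at 0.763 and 0.738 times it. Complex III stood at 0.880 times the adult mean, complex II at 0.970 times and complex V at 0.986 times. A sum is weighted to its most abundant genes, which in complex V were Atp5b and Atp5a1. The order of the complexes by gene medians, given below, was different. Neonatal replicate 4 was at 1.69 (complex II) to 2.41 (complex IV) times the adult mean.

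Of the 91 genes, 86 passed the filter on low counts, and these were tested with edgeR's quasi-likelihood test across all genes that passed. A gene was called at a Benjamini-Hochberg adjusted p under 0.05, and fold changes are log2, neonatal minus adult. On 6 libraries no gene of the 86 was called in either direction, where 0.0151% of the 13272 genes tested were called higher and 0.0377% lower. At an unadjusted p under 0.05 there were 2 higher and 0 lower, where 654 of the 13272 genes tested were higher and 931 lower. The other tools called 0 of the 86, except limma voom with library quality weights, which called 1 higher (Uqcrc1). Of the 13272 genes, DESeq2 called 759 and limma voom with library quality weights 1056. The fold change was positive for 78 genes and negative for 8, with a median of 0.30 against 0.05 over all genes tested. The median depended on the method, being -0.07 with limma voom, -0.36 with limma voom with library quality weights and 0.02 with each library's exon length trend removed. In 11 genes every neonatal library was above every adult library (7.69% of all genes tested), in none were all below (12.0% of all genes tested), and 75 overlapped.

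Without neonatal replicate 4 most signs reversed. The fold change was negative for 68 of the 86 genes and positive for 18, with a median of -0.46 against -0.05 over all genes tested. By complex the median was -0.49 (I), -0.09 (II), -0.51 (III), -0.35 (IV) and -0.44 (V). Complexes III and V were thus lower by this measure than complex IV, unlike in the summed CPM. In 52 genes both neonatal libraries were below all 3 adults, where 25% of all 13856 genes tested were. In 12 genes both were above, where 25.3% of all genes were, and 22 overlapped. Only 1 gene was called higher, Uqcrc1, in a background of 3.72%. The 6 called lower, in a background of 2.25%, were Ndufb3, Ndufs4, Ndufs6, Uqcrb, Cox6c and Cox7a2. At an unadjusted p under 0.05, 39 of the 86 genes were lower and 3 higher, where 1968 of all 13856 genes tested were lower and 2124 higher. A further 22 genes had adjusted p-values between 0.05 and 0.1, and 21 of these were lower, the nearest being Atp5f1 (adjusted p = 0.0502, edgeR), so that the count of 6 sits at a dense edge. The median stayed negative, from -0.54 to -0.18, under all 14 alternatives, but the count called lower went from 0 to 31. Calls over all genes tested moved too. They were 828 of 13856 in the main fit and 3289 of 13856 with DESeq2. Without adult replicate 1 or 2 they were 9 of 13510 and 19 of 13554.

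**Figure D2:**
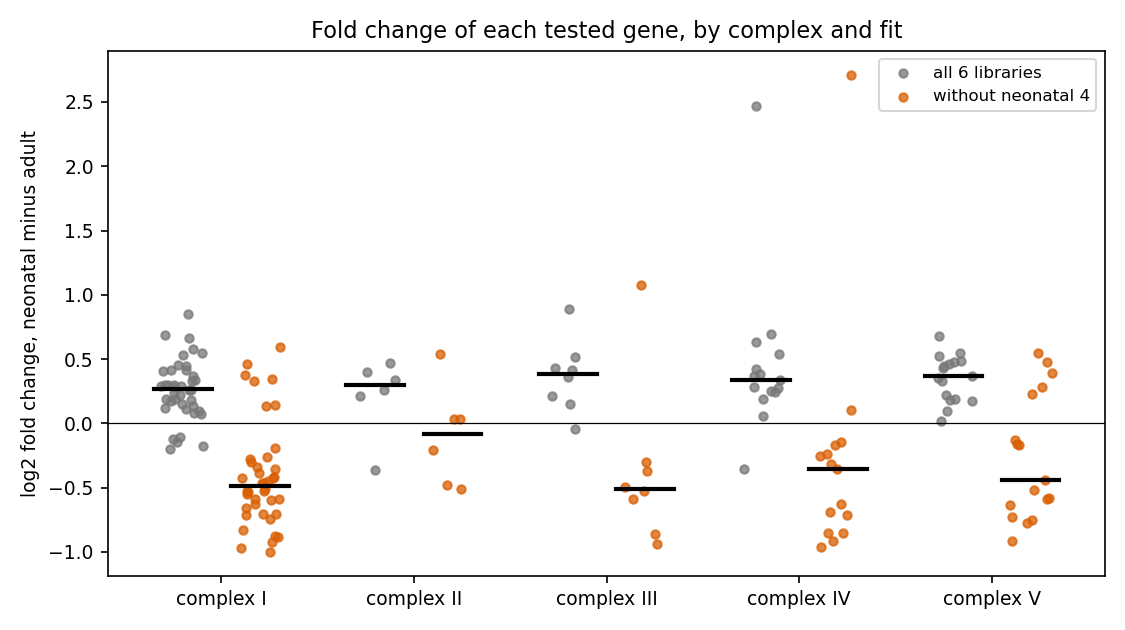
Log2 fold change, neonatal minus adult (vertical axis), of each of the 86 tested genes by complex, on all 6 libraries (grey) and without neonatal replicate 4 (orange), with black bars at the medians. The medians are between 0.27 and 0.39 on 6 libraries and between -0.51 and -0.09 on 5.

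Exon length moved with both patterns. Of the 86 genes, 45 had an exon length of at most 750 bp. Among all genes of that length the median of log2(CPM + 1) in neonatal replicate 4 minus the mean of neonatal replicates 7 and 8 was 1.17, against -0.14 over all genes, and for the 45 it was 1.74. On 5 libraries 72.3% of all genes up to 750 bp had a negative fold change (median -0.42), and 41 of the 45 did (median -0.59). Between 1501 and 3000 bp the median was 0.06 over all genes and 0.39 over 13 members, of which 6 were negative. Across the 86 genes Spearman's rho between exon length and the 5 library fold change was 0.48, and across all genes 0.04. These are across genes of the same libraries and carry no p. With each library's trend on exon length removed, the 5 library median of the members was -0.18, with 57 negative and 29 positive, and Uqcrc1 (higher) and Ndufs4 (lower) were the only genes of the 86 called. The part of exon length in the result beyond this fit was not tested.

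**Figure D3:**
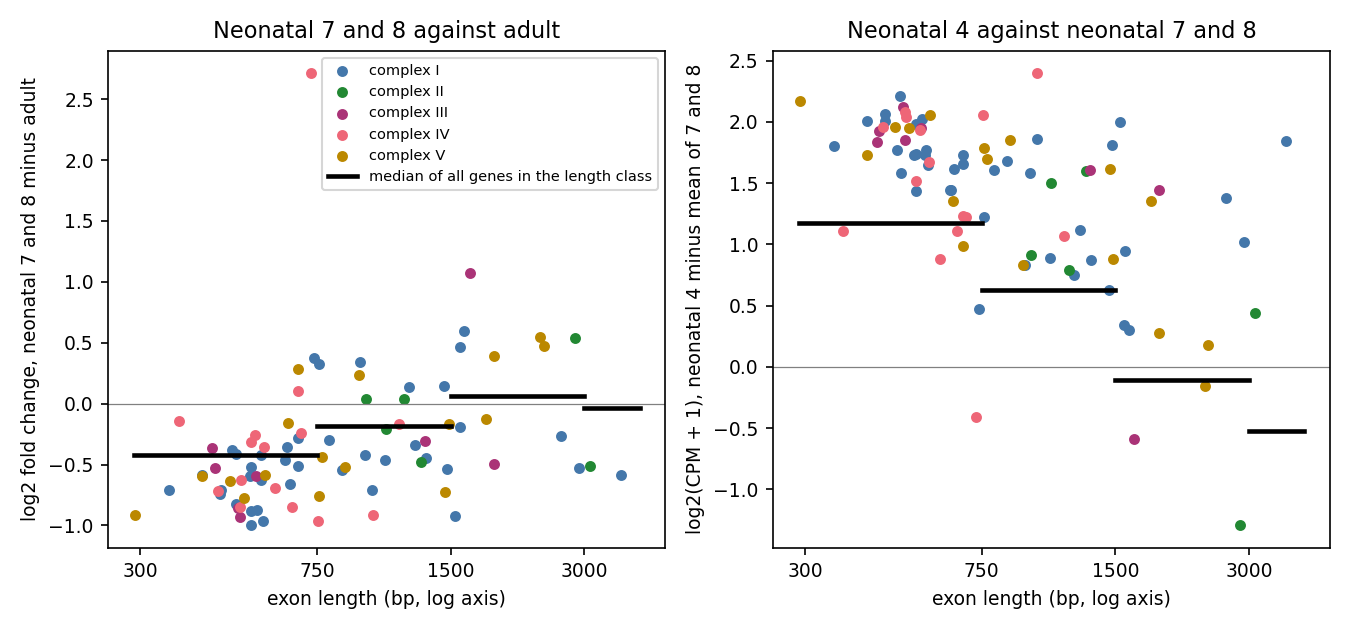
Exon length (horizontal, log axis) of the 86 tested genes, coloured by complex, against the 5 library log2 fold change (left) and against log2(CPM + 1) of neonatal replicate 4 minus the mean of neonatal replicates 7 and 8 (right). Black lines are medians of all genes in 4 length classes (up to 750, 751 to 1500, 1501 to 3000 and over 3000 bp, the last drawn to the edge of the plot), at -0.42 for the shortest class on the left and 1.17 on the right.

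Complex I held 3 of the 6 genes called lower, and all 3 are accessory subunits. Ndufb3 is a small subunit of the membrane arm (chr1:58586599-58595948 in mm10). Its level in adult replicates 1, 2 and 4 was 147.8, 132.7 and 120.9 CPM, against 223.9 in neonatal replicate 4 and 67.0 and 65.9 in neonatal replicates 7 and 8. Neonatal replicate 4 was the highest library and the other neonatal libraries were the lowest, with a gap to every adult. The 5 library log2 fold change was -1.0 ± 0.18 (SE, edgeR adjusted p = 0.0408). Ndufs4, which is needed for a stable NADH-binding module and whose loss in mice is a model of Leigh syndrome (chr13:114287795-114388094), was at 106.3, 97.7 and 95.7 CPM in the adults, 212.8 in neonatal replicate 4, and 52.3 and 52.6 in neonatal replicates 7 and 8. The order of libraries was the same as for Ndufb3, and the fold change was -0.92 ± 0.17 (SE, edgeR adjusted p = 0.0420). Ndufs6, a zinc-binding subunit of the same module (chr13:73319876-73328482), was at 128.7, 97.0 and 120.5 CPM in the adults, 185.6 in neonatal replicate 4, and 56.9 and 60.3 in the other neonatal libraries. Again the groups did not overlap once neonatal replicate 4 was left out (-0.97 ± 0.20, SE, edgeR adjusted p = 0.0467).

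On 6 libraries these genes had fold changes of -0.18, 0.08 and -0.20. Leaving out adult replicate 1 or 2 from the 5 ended all 3 calls, where only 9 of 13510 and 19 of 13554 genes tested were called. Without adult replicate 4, where 1267 of 13573 genes were called, those of Ndufb3 and Ndufs4 held. Over 14 alternatives the adjusted p ran from 1.01e-05 to 0.260 for Ndufb3, from 8.21e-06 to 0.267 for Ndufs4 and from 0.000273 to 0.275 for Ndufs6, with the same direction in each. Ndufs4 was the 1 gene called lower with the exon length trend removed (adjusted p = 0.0444), and its exon length of 1534 bp is longer than that of most accessory subunits.

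The promoters of Ndufs4 and Ndufs6 are printed because both genes were called lower and both windows hold a YY1 motif. The windows run from 250 bases before to 50 after the start site, as RefSeq gives it for GRCm38.p6, and both genes lie on the minus strand, at chr13:114388045-114388344 and chr13:73328433-73328732. Capitals mark AAGATGGCG, the letters searched for YY1, at bases 36 to 44 after the start in Ndufs4 and 34 to 42 in Ndufs6.
Ndufs4: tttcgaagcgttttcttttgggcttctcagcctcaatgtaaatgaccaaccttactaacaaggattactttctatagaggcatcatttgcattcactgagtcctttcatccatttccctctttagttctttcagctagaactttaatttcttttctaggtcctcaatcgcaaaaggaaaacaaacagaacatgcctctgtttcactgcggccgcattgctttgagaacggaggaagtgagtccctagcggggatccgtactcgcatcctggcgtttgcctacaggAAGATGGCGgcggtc
Ndufs6: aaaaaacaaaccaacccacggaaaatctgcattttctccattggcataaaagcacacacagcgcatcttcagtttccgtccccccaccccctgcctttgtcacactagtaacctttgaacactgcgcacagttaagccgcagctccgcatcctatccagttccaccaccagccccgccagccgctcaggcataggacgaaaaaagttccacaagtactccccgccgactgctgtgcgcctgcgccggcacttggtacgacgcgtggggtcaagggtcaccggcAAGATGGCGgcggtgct
Of the 76 genes with a promoter in the RefSeq table, 10.5% held this motif on either strand, against 3.29% of 10794 genes tested and 1.4% of all windows in the table. It was in 6 of the 46 genes with a promoter and neonatal replicates 7 and 8 below all adults, and in 2 of the 9 with both above. Ndufb3 and Cox7a2, also called lower, had no match in their windows, and Uqcrb and Cox6c were not matched to a promoter.

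The core subunits of complex I lay on both sides of the adults, and the accessory ones mostly below. These role groups, like those of the other complexes, were formed after the values were seen, so their counts are descriptions and the difference was not tested. Among the 7 nuclear core subunits, which carry the flavin and the iron-sulphur clusters or bind ubiquinone, neonatal replicates 7 and 8 were both above all adults in 4, among them Ndufs3, Ndufs7 and Ndufv1, and both below in 2 (Ndufs8 and Ndufv2), and Ndufs1 overlapped. Of 28 tested accessory subunits, 22 were below, 5 overlapped and 1, Ndufa8, was above. Over all 13856 genes tested, 25% were below and 25.3% above. Median fold changes on 5 libraries were 0.33 for the core and -0.53 for the accessory subunits, and median exon lengths were 1472 and 601 bp.

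Ndufv1, which binds NADH, stood at 156.1, 99.4 and 160.4 CPM in the adults, 240.3 in neonatal replicate 4, and 186.8 and 192.8 in the other neonatal libraries (0.46 on 5 libraries, edgeR adjusted p = 0.250). Ndufs1, the largest core subunit, had a wide spread, with 88.0, 102.9 and 153.4 CPM in the adults, 153.9 in neonatal replicate 4, and 103.0 and 55.4 in neonatal replicates 7 and 8, so that the groups overlapped.

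Ndufa4 was named for complex I and is now placed in complex IV. It was at 271.4, 242.9 and 294.5 CPM in the adults, 693.4 in neonatal replicate 4, and 176.5 and 125.7 in neonatal replicates 7 and 8, a fold change of -0.83 on 5 libraries (edgeR adjusted p = 0.0648). Its relative Ndufa4l2, induced by hypoxia in other tissues, had 0 counts in every library, which allows up to 0.897 CPM in neonatal replicate 4 and up to 0.0502 CPM in the others at a floor of 3 counts (counting error only). Ndufs5 had 1 count in all. Of its 509 bp of exon, 95.1% overlap BC002163 on the same strand, which held 6702 counts, and the counting command in the file header has no option to assign reads that overlap more than 1 gene. The level of Ndufs5 can therefore not be read from this table. The 4 assembly factors named Ndufaf were at 9.82 to 123.4 CPM, and 1 of them, Ndufaf3, had neonatal replicates 7 and 8 below all adults.

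The genes of complex II, which is also an enzyme of the citric acid cycle, gave no call on 5 libraries. Sdha, the flavoprotein that oxidises succinate, was at 272.4, 266.6 and 405.5 CPM in the adults, 184.4 in neonatal replicate 4, and 471.2 and 436.6 in neonatal replicates 7 and 8. Neonatal replicate 4 was its lowest library, whereas the other neonatal libraries were above every adult (0.54 ± 0.23 on 5 libraries, SE, edgeR adjusted p = 0.180). Sdhb, the iron-sulphur subunit, had 230.6, 195.0 and 237.3 CPM in the adults, 540.7 in neonatal replicate 4, and 188.4 and 191.6 in the others. The membrane anchors Sdhc and Sdhd had 5 library fold changes of 0.04 and -0.48, and the assembly factors Sdhaf1 and Sdhaf2 had 0.04 and -0.51, with adjusted p-values of at least 0.138 (edgeR).

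Complex III held the 1 gene called higher and a gene called lower. Uqcrc1, a core protein of the matrix side (chr9:108936648-108949641), was at 215.5, 234.0 and 303.9 CPM in the adult libraries, 348.8 in neonatal replicate 4, and 520.7 and 528.4 in neonatal replicates 7 and 8. Every neonatal library was above every adult library, and neonatal replicate 4 lay between the adults and the other neonatal libraries. The log2 fold change was 0.89 ± 0.31 on 6 libraries (SE, edgeR adjusted p = 0.320) and 1.07 ± 0.20 on 5 (SE, adjusted p = 0.0421), or 2.10-fold. The 5 library call held with the exon length trend removed (adjusted p = 0.0488) and without adult replicate 4. It was lost without adult replicate 1 or 2, where only 9 of 13510 and 19 of 13554 genes tested were called. That it held without neonatal replicate 7 or 8 is not claimed, since those fits leave 1 neonatal library. Over the 14 alternatives the adjusted p was 4.52e-05 to 0.248 and the direction the same.

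Its promoter is printed because NRF1, a regulator of nuclear respiratory genes, is known to bind the letters GCGCATGCG. The window is chr9:108936398-108936697 in GRCm38.p6 (RefSeq), plus strand, and capitals mark 2 overlapping matches, 1 on each strand, at bases 31 to 40 after the start.
Uqcrc1: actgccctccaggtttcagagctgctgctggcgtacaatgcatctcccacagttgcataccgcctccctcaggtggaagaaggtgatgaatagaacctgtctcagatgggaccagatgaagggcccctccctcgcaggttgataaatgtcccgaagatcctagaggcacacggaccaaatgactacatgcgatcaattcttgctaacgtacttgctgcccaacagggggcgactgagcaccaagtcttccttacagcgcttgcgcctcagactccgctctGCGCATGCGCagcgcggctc
Of the 76 promoters found, 9 held these letters (11.8%), against 3.86% of 10794 genes tested. CCGGAAG, the ETS letters that GABPA binds, was in 19 of the 76 against 19.1% of genes tested, and GGGCGG, bound by SP and KLF factors, in 46.1% of the 76 against 65.2%. Among the 46 genes with a promoter and neonatal replicates 7 and 8 below all adults, 8.7% held the NRF1 letters, and of the 9 with both above, 2 did. A match says only that the letters are there.

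Uqcrc2, the other core protein, had a 5 library fold change of the opposite sign to Uqcrc1, with 249.1, 199.3 and 229.4 CPM in the adults, 434.0 in neonatal replicate 4, and 151.8 and 166.9 in neonatal replicates 7 and 8 (-0.49 on 5 libraries, edgeR adjusted p = 0.130). Uqcrfs1, the Rieske iron-sulphur protein, had overlapping groups (-0.30, adjusted p = 0.392). All 5 small subunits (Uqcrb, Uqcrh, Uqcrq, Uqcr10 and Uqcr11) had both deep neonatal libraries below the adults, where 25% of all 13856 genes tested did. The 5 had exon lengths of 436 to 546 bp and fold changes of -0.93 to -0.37. Of these Uqcrb, named for binding ubiquinone (chr13:66900621-66905350), was called. It stood at 356.0, 285.1 and 254.1 CPM in the adults, 560.7 in neonatal replicate 4, and 158.7 and 151.2 in neonatal replicates 7 and 8. Its fold change was -0.93 ± 0.20 (SE, edgeR adjusted p = 0.04996, 0.000659 to 0.288 over 14 alternatives), and -0.04 on 6 libraries. The call was kept without adult replicate 4 and lost without any other of the 5 libraries.

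**Figure D4:**
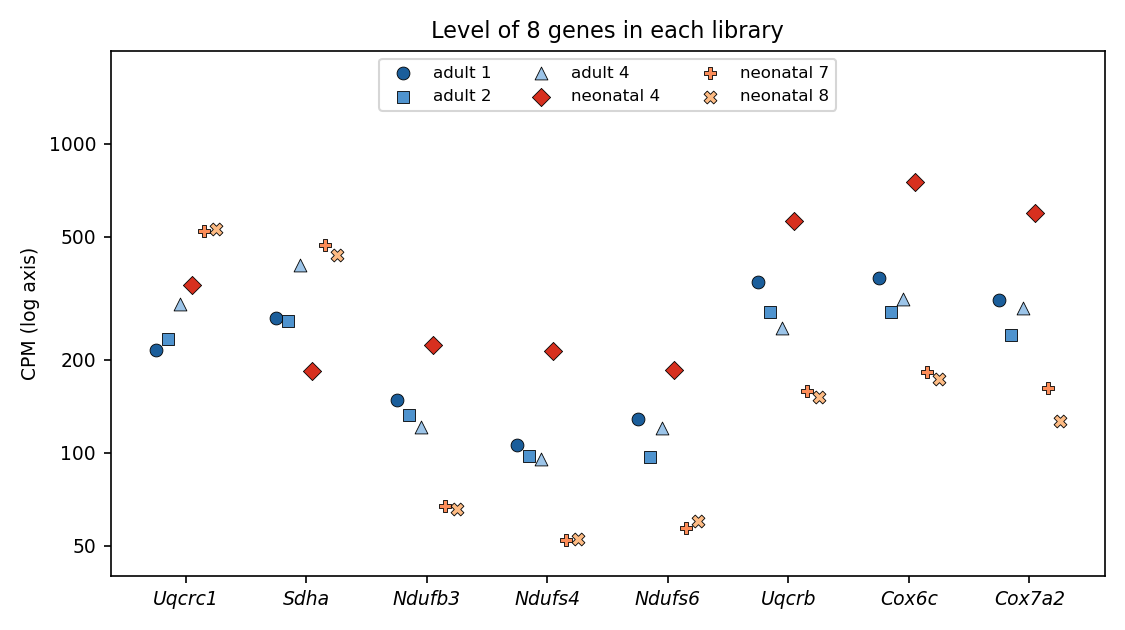
CPM (log axis) of 8 genes in each of the 6 libraries: the 7 called on 5 libraries, with Sdha for comparison. Neonatal replicate 4 is above all other libraries for the 6 genes called lower, while it lies below the other neonatal libraries for Uqcrc1 and is the lowest library for Sdha.

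In complex IV the genes expressed in most tissues leaned lower in the deep neonatal libraries, and most tissue isoforms were low. Of 11 widely expressed genes, 8 had neonatal replicates 7 and 8 below all adults, none had both above and 3 overlapped. Over all 13856 genes tested, 25% had both below and 25.3% both above. The median fold change of the 11 was -0.35. Cox6c (chr15:35931976-35938246) was at 367.2, 286.4 and 315.0 CPM in the adults, 753.5 in neonatal replicate 4, and 182.1 and 173.9 in neonatal replicates 7 and 8 (-0.85 ± 0.18 on 5 libraries, SE, edgeR adjusted p = 0.0498). Cox7a2, the form of subunit 7a found in most tissues (chr9:79755241-79759853), was at 312.7, 240.2 and 293.8 CPM in the adults, 595.7 in neonatal replicate 4, and 161.6 and 126.3 in the others (-0.96 ± 0.21, SE, edgeR adjusted p = 0.0499). Both genes had gaps between the deep neonatal and the adult libraries and had 6 library fold changes of 0.19 and 0.06. They lost the call without any 1 of the adult libraries. Over all genes tested, 9 of 13510 were called without adult replicate 1 and 19 of 13554 without adult replicate 2. Without adult replicate 4 it was 1267 of 13573. Over 14 alternatives the adjusted p ran from 0.000419 to 0.288 for Cox6c and from 0.000584 to 0.296 for Cox7a2.

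Cox4i1, the usual form of the regulatory subunit 4, lay among the adults in the deep neonatal libraries. Its levels were 480.0, 371.7 and 444.8 CPM in the adults, 1085 in neonatal replicate 4, and 468.4 and 453.9 in neonatal replicates 7 and 8, a fold change of 0.10 on 5 libraries (edgeR adjusted p = 0.735). Cox5a and Cox5b, which with subunit 4 surround the catalytic core, had 5 library fold changes of -0.24 and -0.35 (adjusted p = 0.410 and 0.238), and both became positive, at 0.09 and 0.05, with the exon length trend removed. The same happened to Cox6a1 and Cox8a. Cox6b1 kept its sign, but its fold change went from -0.63 (edgeR adjusted p = 0.0865) to -0.19 (edgeR adjusted p = 0.502) with that trend removed.

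Isoform families were compared per length, as shares of the family's summed RPKM (CPM per kilobase of exon). Cox4i2, the lung and hypoxia form of subunit 4, had 16, 2 and 3 counts in the adults, 1 in neonatal replicate 4, and 74 and 31 in neonatal replicates 7 and 8. It had the largest 5 library fold change of the 86 genes (2.71 ± 1.25, SE) but was not called (edgeR adjusted p = 0.203), and it made up at most 0.209% of its family. The striated muscle forms Cox6a2 and Cox7a1 made up at most 0.345% and 1.16% of theirs. Cox7b2 and Cox8c, known from testis, had 0 counts in all libraries, and Cox8b had 3 counts, all in adult replicate 2. Cox6b2, also known from testis, was an exception to the low level of such forms: it took 20.2, 17.2 and 10.4% of subunit 6b in the adults, 7.61% in neonatal replicate 4, and 17.2 and 13.9% in neonatal replicates 7 and 8. The groups overlapped. Cox7a2l, a supercomplex factor related to subunit 7a, took 26.4, 20.8 and 16.4% of its family in the adults, 19.1% in neonatal replicate 4, and 25.6 and 38.8% in the other neonatal libraries.

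Complex V gave no call on 5 libraries, and fold changes of both signs occurred among its parts. They were negative for 12 of its 17 genes and positive for 5, with a median of -0.44. The alpha and beta subunits, Atp5a1 and Atp5b, form the catalytic head. Atp5a1 was at 1065, 780.5 and 1192 CPM in the adults, 1575 in neonatal replicate 4, and 1276 and 1516 in neonatal replicates 7 and 8. Atp5b was at 1274, 1088 and 1693 CPM in the adults, 2125 in neonatal replicate 4, and 1695 and 1828 in neonatal replicates 7 and 8. For both genes all neonatal libraries were above all adults, for Atp5b by a narrow margin, and the 5 library fold changes of 0.47 and 0.39 did not pass (edgeR adjusted p = 0.220 and 0.296). Per length, Atp5b was the most abundant of the 91 genes, at 719 ± 165 RPKM in the adults (SD, n = 3).

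The 4 genes of the peripheral stalk, which holds the head still against the rotor, all had neonatal replicates 7 and 8 below the adults (Atp5f1, Atp5h, Atp5j and Atp5o, median -0.66). So did the 3 small membrane subunits e, f and g (Atp5k, Atp5j2 and Atp5l, median -0.77). Among all 13856 genes tested, 25% had both of these libraries below the adults. Atp5f1 came closest to the threshold, at 429.9, 402.4 and 430.3 CPM in the adults, 773.5 in neonatal replicate 4, and 251.1 and 253.3 in the others (-0.73 ± 0.16, SE, edgeR adjusted p = 0.0502, and 5.05e-05 to 0.288 over 14 alternatives). Its fold change moved little with the exon length trend removed (-0.74). Of its exon length 14.1% overlaps Wdr77 on the opposite strand. Strand was not marked, and the counting command has no option to assign reads that overlap more than 1 gene. Some overlap with another gene occurred in 10 of the 91 genes. Atp5s and Atp5sl carry the prefix but are not subunits of the enzyme, and Atp5sl was at 26.1, 24.5 and 22.7 CPM in the adults, 31.7 in neonatal replicate 4, and 34.6 and 36.2 in neonatal replicates 7 and 8 (0.55, edgeR adjusted p = 0.141).

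The c ring, the rotor through which protons pass, is built from 1 mature protein that 3 genes encode. Atp5g3 took 35.2, 37.3 and 38.6% of the summed RPKM of the 3 in the adults, 37.1% in neonatal replicate 4, and 48.1 and 47.9% in neonatal replicates 7 and 8. Atp5g1 took 37.2, 36.2 and 37.6% in the adults, 38.5% in neonatal replicate 4, and 29.6 and 25.2% in the other neonatal libraries. In the Atp5g3 share neonatal replicate 4 lay within the adult range. In the Atp5g1 share it lay slightly above the adults, on the side away from neonatal replicates 7 and 8. Those libraries lay outside the adult range in both shares. Fold changes on 5 libraries were 0.29 for Atp5g3, -0.52 for Atp5g1 and -0.16 for Atp5g2, none called (edgeR adjusted p = 0.377, 0.165 and 0.640). The sign of Atp5g2 turned, to 0.20, with the exon length trend removed.

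**Figure D5:**
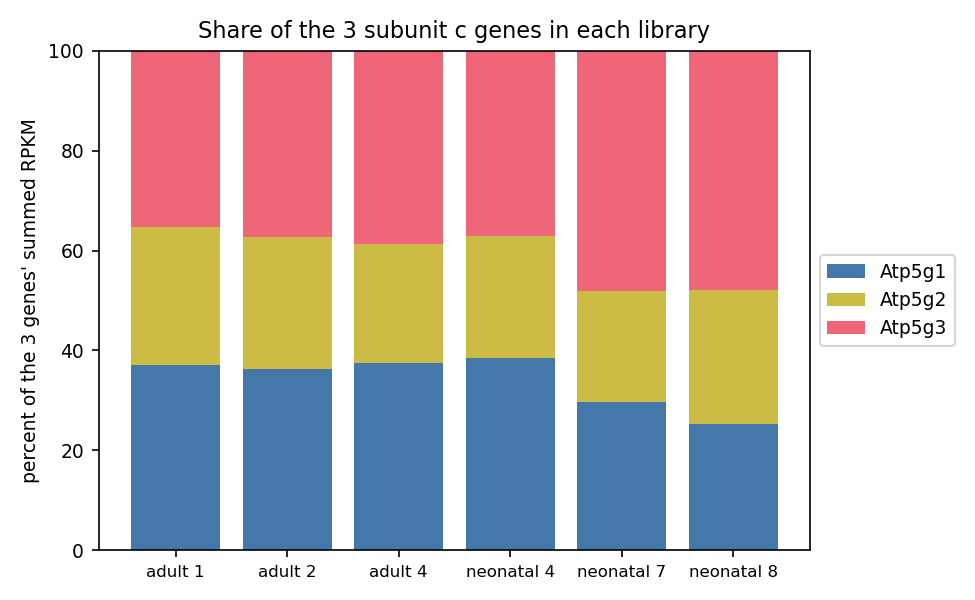
Stacked bars of the percent of summed RPKM that each of the 3 subunit c genes takes in each library. The Atp5g3 part is 35.2 to 38.6% in the adult libraries and neonatal replicate 4, and 47.9 and 48.1% in neonatal replicates 8 and 7.

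Within groups the libraries were not equally spread. Adult replicate 2 was the lowest adult library for 65 of the 86 genes and the highest for 1. The median coefficient of variation over the adults was 13.4%. Neonatal replicates 7 and 8 lay within 20% of each other in 63 of the 86 genes, with a median ratio of 1.0. Neonatal replicate 4 was the highest of all 6 libraries for 80 genes, the exceptions being Sdha, Sdhaf2, Uqcrc1, Cox4i2, Cox6b2 and Atp5sl. Its ratio to the mean of neonatal replicates 7 and 8 ran from 0.397 (Cox4i2, 1 count) to 6.01 (Cox6a2, 6 counts), with a median of 3.08.

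The 12 genes with neonatal replicates 7 and 8 above all adults included Ndufa8, Ndufs3, Ndufs7, Ndufv1, Sdha, Uqcrc1, Cox4i2, Atp5a1, Atp5b, Atp5g3 and Atp5sl. Their median exon length was 1589 bp, and that of the 52 genes below was 560.5 bp. Summed, the 12 took 3759, 3129 and 4610 CPM in the adults and 5102 and 5523 CPM in neonatal replicates 7 and 8. The 52 took 11192, 9192 and 10493 CPM in the adults and 6912 and 6560 CPM in those neonatal libraries. These sums follow from how the sets were formed and are descriptions.

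On the X chromosome lie Ndufa1, Ndufb11 and Cox7b, for which sex and age cannot be told apart. Cox7b was at 203.8, 175.6 and 200.2 CPM in the adults, 529.9 in neonatal replicate 4, and 121.3 and 82.3 in neonatal replicates 7 and 8 (-0.91 on 5 libraries, edgeR adjusted p = 0.0581). Ndufa1 and Ndufb11 had 5 library fold changes of -0.42 and -0.55 (adjusted p = 0.208 and 0.126). All 3 were lower in both deep neonatal libraries than in any adult library, as were 25% of all 13856 genes tested.

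Genes of the pathway outside the name rule were taken from further lists. Of 10 respiratory chain genes with other names, 7 had an unadjusted p under 0.05 and a lower level on 5 libraries. Of all 13856 genes tested, 1968 did. None of the 10 was called, and their median fold change was -0.62. Cycs, the cytochrome c of somatic cells, was at 424.8, 473.6 and 615.7 CPM in the adults, 1521 in neonatal replicate 4, and 356.5 and 253.1 in neonatal replicates 7 and 8 (-0.72, edgeR adjusted p = 0.115). Cyc1, the cytochrome c1 of complex III, had a fold change of 0.12 (adjusted p = 0.721). Of 17 genes of the citric acid cycle and pyruvate entry, 9 were higher and 8 lower on 5 libraries, with a median of 0.07.

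Assembly factors with other names gave 1 call on 5 libraries, where 3.72% of all 13856 genes tested were called higher. Cox15, which makes the heme a of complex IV, was at 80.1, 68.5 and 90.9 CPM in the adults, 57.4 in neonatal replicate 4, and 142.1 and 147.4 in neonatal replicates 7 and 8 (0.87 ± 0.19 on 5 libraries, SE, edgeR adjusted p = 0.0492, and 0.000675 to 0.282 over 14 alternatives). The other 10 tested complex IV factors, and all 7, 3 and 3 tested factors of complexes I, III and V, were not called, and the 3 tested supercomplex and hypoxia factors were not called either. Among 17 regulators of mitochondrial genes, Polrmt, the mitochondrial RNA polymerase, was called higher, against the same 3.72% of all genes. With the exon length trend removed Cox15 was not called (0.81, edgeR adjusted p = 0.0663). Polrmt still was (1.45, edgeR adjusted p = 0.0466). Polrmt stood at 20.4, 20.8 and 33.3 CPM in the adults, 7.77 in neonatal replicate 4, and 77.8 and 69.7 in neonatal replicates 7 and 8 (1.58 ± 0.27, SE, edgeR adjusted p = 0.0401, and 1.78e-05 to 0.246 over 14 alternatives). In Cox15 and Polrmt neonatal replicate 4 was the lowest library and the other neonatal libraries were the highest, the opposite order to that of most of the 86 genes, and on 6 libraries neither was called.

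Nrf1 and Tfam, the regulators of nuclear respiratory genes and of the mitochondrial genome, were not called. Nrf1 was at 76.5, 86.8 and 79.4 CPM in the adults, 55.9 in neonatal replicate 4, and 78.9 and 112.5 in neonatal replicates 7 and 8 (0.25, edgeR adjusted p = 0.460). Tfam had a fold change of -0.31 (adjusted p = 0.362). Ppargc1a, the coactivator that drives mitochondrial biogenesis in muscle and brown fat, was at most 1.84 CPM in any library.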

How the data were processed

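PolyA-selected RNA of sorted LICs was sequenced single-end in 6 libraries made with a NEBNext Ultra RNA kit, per the labels' protocols, and this kit leaves strand unmarked. The authors deposited 1 table of unnormalized counts, which featureCounts 1.5.1 made from primary alignments with a UCSC mm10 annotation, per the file headers. Trimmomatic, Bowtie, TopHat and DESeq2 appear in the submitters' processing notes, with no version.

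Genes were kept with filterByExpr (minimum count 10), scaled by TMM and tested with edgeR 4.0.16 in R 4.3.3 (robust quasi-likelihood, Benjamini-Hochberg over all genes tested, threshold 0.05), once on 6 libraries and once, with everything refitted, without neonatal replicate 4. SEs were the absolute log2 fold change divided by the square root of F and are approximate. Alternatives were DESeq2 1.42.0, limma 3.58.1 (voom, with and without library quality weights), 3 scalings, 2 filters, offsets removing each library's exon length trend, and each library left out. The fits were tested on simulated data. Gene coordinates are the file's, and promoters were matched by symbol to RefSeq (76 of 91).

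Members and lists were chosen with earlier results of these data known. Genes named were those called, the smallest p per complex and direction in each fit, 12 core genes in every case, isoform families, X-linked members, up to 2 called genes of other lists and 5 regulators or cytochromes. Others are named after their values were seen. A few genes of the rule and lists are not reported here.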

Additional observations from a re-analysis of the deposited data

How the results depend on the processing

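On 6 libraries, leaving out each library in turn gave 0 to 1 genes called higher and 0 to 6 called lower, the upper values without neonatal replicate 4, with medians of -0.46 to 0.57, and limma voom with library quality weights called 1 higher. On 5 libraries, the counts called lower were 31 with DESeq2, 19 with a filter at 10 CPM and 16 with limma voom with library quality weights. They were 3 with DESeq2 size factors, with library totals or with no filter beyond 1 count, and 1 with the exon length trend removed. Over all genes tested, 828 of 13856 were called in either direction in the main fit. DESeq2 called 3289 of 13856, the filter at 10 CPM 1416 of 9087 and limma voom with library quality weights 1515 of 13856. DESeq2 size factors gave 834, library totals 845 and the exon length trend removed 459 of 13856. No filter beyond 1 count gave 795 of 16907. DESeq2 called 3 members higher, where it called 1718 of all genes tested higher. Leaving out each adult library gave 0 to 1 members called higher and 0 to 3 called lower, where 9 to 1267 of all genes tested were called. Leaving out neonatal replicate 7 or 8 left 1 neonatal library, so only the member medians of those fits are given, -0.46 and -0.44. The median of the members moved to -0.18 with the exon length trend removed, and was -0.54 to -0.40 with each library left out. The causes of these shifts were not tested.

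Signs that turned on 5 libraries, all of genes not called, were those of Atp5g2 (0.20), Cox5a (0.087), Cox5b (0.053), Cox6a1 (0.10), Cox7a1 (0.31), Cox8a (0.16) and Ndufa1 (0.026) with the exon length trend removed, Cox6a2 (0.18) with limma voom with library quality weights, and Sdhaf1 (-0.015) with upper quartile scaling. With libraries left out, Cox6a2 ran from -1.39 to 0.32, Cox7a2l from -0.46 to 0.18, Nrf1 from -0.029 to 0.49 and Sdhaf1 from -0.11 to 0.16. No paired analysis was possible because the groups share only replicate number 4.

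The depth of neonatal replicate 4 limits genes of few counts, such as Cox4i2 (1 count) and Cox6a2 (6 counts). Where an arm had 1 library, it was assumed to vary like the other group.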
